A study of Mus musculus with 3 samples.

Results

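Activation-induced deaminase (AID) deaminates cytosines in the immunoglobulin genes of activated B cells, and the genes described here are 7 of its DNA repair partners. They are *Ung*, *Apex1*, *Msh6*, *Exo1*, *Polh*, *Rev1* and *Trp53bp1*, found by their symbols among the 32285 gene identifiers of the deposited count tables, and each symbol was found on 1 row. Mice received sheep red blood cells once, which induces germinal centers (GCs), and their splenic B cells were sequenced 10 days later from the 3′ ends of transcripts in droplets, with a unique molecular identifier (UMI) marking each captured molecule. There was 1 library per genotype. 3′RR-*BCL2* mice carry a randomly inserted human *BCL2* gene with its own promoter region under the enhancers of the immunoglobulin heavy chain 3′ regulatory region (3′RR). Igκ-*BCL2* mice carry the same human cassette in the Igκ light chain locus in place of the Jκ region. WT mice carry neither. The *BCL2* lines are on a mixed B6/129 background, and the ages of the mice behind these libraries are not given in the sources used here.

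AID-made uracils are handled along several routes. UNG removes the uracil and the endonuclease APE1, the product of *Apex1*, cuts the abasic site, which is base excision repair. The mismatch route starts with recognition of the U:G pair by a complex that contains MSH6, after which the exonuclease EXO1 removes a stretch of the strand and the polymerase eta, made from *Polh*, fills it with errors at A:T pairs. REV1 inserts dC opposite abasic sites and is a scaffold for other translesion polymerases, and 53BP1, made from *Trp53bp1*, protects broken ends during class switching. In the GC these activities accompany rapid division and somatic hypermutation.

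With 1 library per genotype no test between genotypes was possible, and genotype, mouse and library cannot be told apart. Intervals are exact, at 95%, and take in counting error alone (Poisson for levels, the conditional interval of a pair of Poisson counts for ratios, Clopper-Pearson for shares of cells). A level is the sum of UMIs of a gene over the cells of a class per 1000000 UMIs of those cells (counts per 1000000, CPM), and a difference is a log2 ratio of levels, where 1 stands for a 2-fold difference. The libraries held 7034 to 11269 barcodes and 37433924 to 62777659 UMIs, of which 6561 cells in 3′RR-*BCL2*, 6243 in the Igκ-*BCL2* library and 9932 in WT were kept, with median UMIs per cell of 4838 to 5291. B lineage markers summed to 6527 to 6878 CPM in the kept cells, against 1.01 to 1.82 for the *Cd3* genes and 1.22 to 42.6 for the myeloid genes *Lyz2*, *S100a8* and *S100a9*. By its label only the WT library is of sorted B cells and the *BCL2* libraries are of whole tissue, whereas the methods describe magnetic sorting throughout. *Xist* stood at 1719 CPM in 3′RR-*BCL2* and under 1 in the others, so the sex of the mouse also differs with genotype. Pairs of libraries shared 15 to 24 barcode sequences.

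Cells were put into classes by marker genes. A cell with UMIs of at least 3 of 10 GC genes was called GC-like, and it was called dividing when it held at least 2 UMIs of *Mki67* and *Top2a* in sum. There were 321 dividing and 597 non-dividing GC-like cells in 3′RR-*BCL2*, 149 and 295 in the Igκ-*BCL2* library and 60 and 58 in WT. The resting-like follicular class held 3978, 4198 and 7238 cells in the same order of libraries. These classes are ranges with many cells near their limits. Of the dividing GC-like cells, 113, 59 and 7 held exactly 2 division UMIs, and of the non-dividing ones 177, 81 and 32 held 1. The 10 GC genes summed to 1230 to 1702 CPM in the GC-like classes and to 32.8 to 48.4 in resting-like cells, which the rule for the classes fixes. *Mki67* and *Top2a* together reached 1059, 572 and 1298 CPM in the dividing GC-like cells of 3′RR-*BCL2*, Igκ-*BCL2* and WT, so that the Igκ-*BCL2* class was the least rich in division transcripts. Median UMIs per cell were 9123, 9026 and 10937.5 in dividing GC-like cells, 6948, 7192 and 8601.5 in non-dividing ones and 4957.5, 4670.5 and 4798 in resting-like ones.

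All members are protein coding in GENCODE M21 (GRCm38). *Ung* lies on chromosome 5 from 114130386 to 114139323 (+ strand) and overlaps no other gene. *Apex1* (chromosome 14, 50924968 to 50927139, +) overlaps *Pip4p1*, *Msh6* (chromosome 17, 87975062 to 87990892, +) overlaps *Fbxo11*, and *Trp53bp1* (chromosome 2, 121193281 to 121271407, −) overlaps *Tubgcp4*, each on the opposite strand. *Osgep*, also on the opposite strand, lies 75 bases from *Apex1*. *Rev1* (chromosome 1, 38052786 to 38129801, −) overlaps *Eif5b* on the opposite strand and the sense intronic *Gm37062*. *Exo1* (chromosome 1, 175880581 to 175913489, +) holds the small nuclear RNA *Gm23805*, and *Polh* (chromosome 17, 46171355 to 46202645, −) starts 137 bases from *Xpo5*. The counting setting for strand is not given in the sources used here, so reads of such neighbors were not separated further.

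Promoter windows of RefSeq (GRCm38.p6), from 250 bases before to 50 after the start, were at hand for 6 of the 7 genes. They are shown for *Apex1* and *Msh6*, a pair with unlike patterns over the classes described below, and the only members with a match close to the start. They were searched on both strands for the E-box CACGTG and for the E2F-type letters TTTCCCGC, TTTGGCGC, TTTCGCGC and TTTGCCGC, with capitals marking a match. The *Apex1* window is chr14:50924699-50924998 (+) and the *Msh6* window chr17:87974800-87975099 (+).
Apex1: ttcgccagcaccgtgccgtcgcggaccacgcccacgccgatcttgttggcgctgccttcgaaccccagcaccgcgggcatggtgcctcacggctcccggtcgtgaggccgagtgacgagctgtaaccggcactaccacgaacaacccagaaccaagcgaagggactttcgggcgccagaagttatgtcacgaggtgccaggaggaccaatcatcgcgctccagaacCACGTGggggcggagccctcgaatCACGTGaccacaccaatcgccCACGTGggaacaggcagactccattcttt
Msh6: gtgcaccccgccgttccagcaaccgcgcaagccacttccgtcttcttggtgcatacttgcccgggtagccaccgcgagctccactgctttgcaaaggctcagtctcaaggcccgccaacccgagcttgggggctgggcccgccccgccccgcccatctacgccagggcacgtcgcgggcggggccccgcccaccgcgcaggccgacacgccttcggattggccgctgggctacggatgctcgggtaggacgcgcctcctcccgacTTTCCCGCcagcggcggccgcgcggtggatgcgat
The *Apex1* window held 3 E-boxes, at positions -24, 0 and 21 from the start, and no E2F-type match. The *Msh6* window held 1 E2F-type match at position 15 and no E-box. Of the other windows, *Rev1* had 1 E-box at -205, and *Ung*, *Polh* and *Trp53bp1* matched neither. Over all 32851 windows of this length, 7.15% held the E-box and 2.26% an E2F-type match. A match describes letters only.

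The translesion genes *Rev1* and *Polh* stood higher in the GC than in resting-like cells in most comparisons. *Rev1* stood at 129.6, 116.2 and 129.2 CPM in dividing GC-like cells of 3′RR-*BCL2*, Igκ-*BCL2* and WT, and at 113.3, 117.9 and 97.3 in non-dividing ones, against 41.8, 39.1 and 39.9 in resting-like cells. In every library both GC levels lay clear of the resting level. The log2 ratio of non-dividing GC over resting cells was 1.44 (95% interval 1.28 to 1.60) in the 3′RR-*BCL2* library, 1.59 (1.38 to 1.79) in the Igκ-*BCL2* library and 1.29 (0.85 to 1.69) in WT. Dividing cells outside the GC held 49.6, 46.1 and 37.5 CPM, and their log2 ratios over resting cells were 0.25, 0.24 and -0.09, all with intervals that hold 0. Between dividing and non-dividing GC cells the ratios were 0.19 (0.002 to 0.39), -0.02 (-0.31 to 0.27) and 0.41 (-0.12 to 0.95).

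*Polh* was higher in dividing GC cells than in resting-like ones, and in 3′RR-*BCL2* and WT higher in dividing than in non-dividing GC cells. It stood at 41.9, 42.0 and 39.2 CPM in dividing GC-like cells of 3′RR-*BCL2*, Igκ-*BCL2* and WT, at 19.3, 29.7 and 9.73 in non-dividing ones, and at 7.5, 8.23 and 6.90 in resting-like cells. Non-dividing GC over resting cells, the log2 ratio was 1.36 (0.97 to 1.75), 1.85 (1.42 to 2.27) and 0.50 (-1.14 to 1.74). The dividing levels of the 3 libraries overlapped, while the non-dividing WT level rests on 5 UMIs in 4 cells. Dividing over non-dividing GC cells, the log2 ratio was 1.12 (0.72 to 1.53) in the 3′RR-*BCL2* library, 0.50 (-0.03 to 1.03) in the Igκ-*BCL2* library and 2.01 (0.59 to 3.76) in WT. Dividing cells outside the GC held 10.5, 12.9 and 5.64 CPM, so that dividing GC cells were above them by log2 ratios of 2.0 (1.23 to 2.88), 1.71 (0.94 to 2.53) and 2.80 (1.71 to 3.97). In finer steps, *Polh* had its highest level in the GC cells richest in division transcripts. GC-like cells with 10 or more UMIs of *Mki67* and *Top2a* held 79.9 (63.0 to 100.1), 85.9 (47.0 to 144.2) and 60.7 (35.4 to 97.2) CPM of *Polh* over 82, 15 and 27 cells. Cells with 4 to 9 such UMIs (76, 42 and 16 cells) held 21.5 (12.0 to 35.4), 42.2 (25.4 to 65.95) and 16.7 (2.02 to 60.3), the last from 2 UMIs of *Polh*. The intervals of these neighboring steps lay apart in 3′RR-*BCL2* and overlapped in the others. *Rev1* stayed between 95.3 and 140.4 in every one of these steps and libraries.

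**Figure D1:**
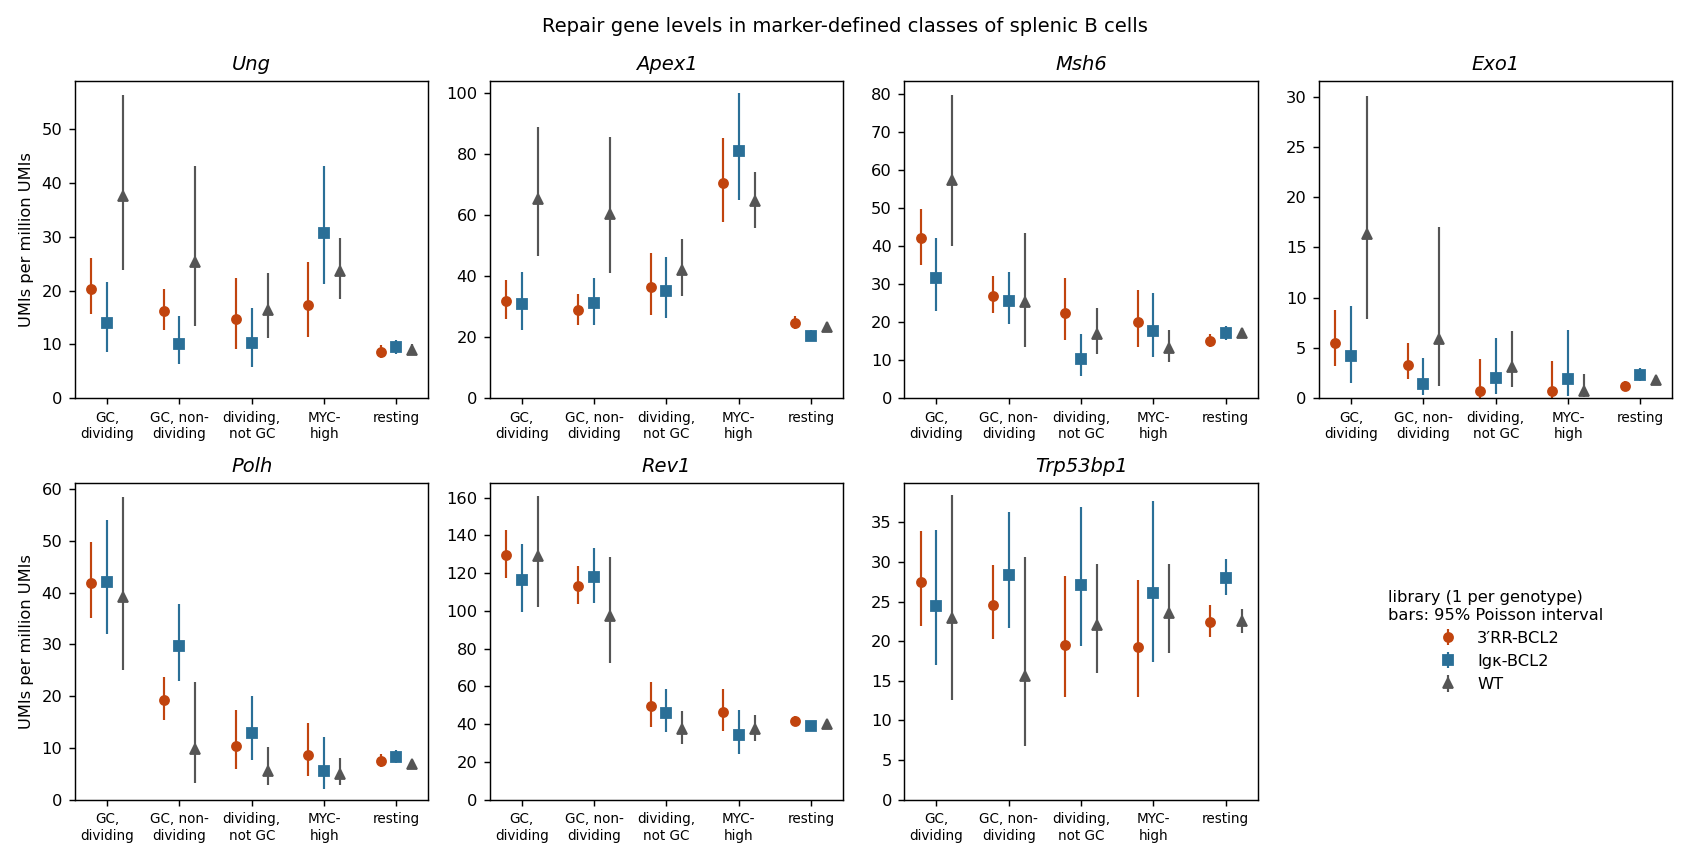
Levels of the 7 genes in 5 marker-defined classes (x axis), in CPM (y axis), for 3′RR-BCL2, Igκ-BCL2 and WT, 1 library each, with 95% Poisson intervals. Rev1 is higher in both GC classes than in resting cells in each library. Polh is likewise, except in non-dividing WT cells (9.73 against 6.90 CPM, from 5 UMIs). Apex1 and Ung are higher in the MYC-high class than in resting cells, and Trp53bp1 stays between 15.6 and 28.3 in all classes shown.

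*Msh6*, the mismatch recognition subunit, was higher in dividing GC-like than in resting-like cells. It stood at 41.9, 31.5 and 57.2 CPM in dividing GC-like cells of 3′RR-*BCL2*, Igκ-*BCL2* and WT, at 26.8, 25.6 and 25.3 in non-dividing ones and at 15.1, 17.1 and 17.0 in resting-like cells. The order of the classes was the same in each library, but not every step was larger than its interval. Dividing over non-dividing GC cells, the log2 ratio was 0.64 (0.28 to 1.01), 0.30 (-0.30 to 0.89) and 1.18 (0.22 to 2.22), and non-dividing GC over resting cells it was 0.83 (0.52 to 1.14), 0.59 (0.15 to 0.99) and 0.57 (-0.35 to 1.35). Dividing cells outside the GC held 22.4, 10.2 and 16.9 CPM, with log2 ratios over resting cells of 0.57 (-0.001 to 1.10), -0.75 (-1.60 to -0.006) and -0.01 (-0.56 to 0.50). Dividing GC over dividing non-GC cells, its log2 ratio was 0.91 (0.34 to 1.51), 1.63 (0.76 to 2.58) and 1.76 (1.03 to 2.49).

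*Exo1*, the exonuclease of the mismatch route, was scarce. Its dividing GC-like counts were 17, 6 and 10 UMIs, or 5.48, 4.20 and 16.4 CPM, and its non-dividing GC-like counts were 15, 3 and 3 UMIs, or 3.33, 1.37 and 5.84 CPM. Resting-like cells held 1.18, 2.25 and 1.77 CPM. Dividing GC-like cells were above non-dividing ones in all 3 libraries, yet each interval held 0 (-0.37 to 1.83, -0.61 to 4.24 and -0.47 to 3.99). Of the *Exo1* UMIs of dividing GC-like cells, 12 of 17, 2 of 6 and 10 of 10 came from cells with 10 or more UMIs of *Mki67* and *Top2a*.

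*Apex1* and *Ung*, the base excision members, had another pattern. *Apex1* stood at 31.9, 30.8 and 65.4 CPM in dividing GC-like cells of 3′RR-*BCL2*, Igκ-*BCL2* and WT, at 28.8, 31.1 and 60.3 in non-dividing ones and at 24.6, 20.5 and 23.5 in resting-like cells. Both *BCL2* libraries were lower than WT in both GC classes, and no library differed between dividing and non-dividing GC cells by more than 0.15 on the log2 scale. *Apex1* was also high outside the GC, in cells with at least 3 of 8 MYC-high markers after thinning to 2000 UMIs, where 70.5, 81.1 and 64.6 CPM gave log2 ratios over resting cells of 1.52 (1.2 to 1.82), 1.98 (1.63 to 2.32) and 1.46 (1.23 to 1.68). Dividing cells outside the GC were also above resting cells, by 0.56 (0.12 to 0.97), 0.78 (0.34 to 1.2) and 0.84 (0.50 to 1.17).

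*Ung* stood at 20.3, 14.0 and 37.6 CPM in dividing GC-like cells, at 16.2, 10.1 and 25.3 in non-dividing ones and at 8.54, 9.42 and 8.99 in resting-like cells of 3′RR-*BCL2*, Igκ-*BCL2* and WT. The resting levels overlapped, and the GC levels of Igκ-*BCL2* were the lowest. Non-dividing GC over resting cells, the log2 ratio was 0.92 (0.51 to 1.32), 0.09 (-0.61 to 0.73) and 1.49 (0.57 to 2.28), the last from 13 UMIs in 7 cells and -0.04 when classes were made from thinned cells. In MYC-high cells *Ung* stood at 17.3, 30.7 and 23.6 CPM, above resting cells by 1.02 (0.37 to 1.61), 1.71 (1.13 to 2.24) and 1.39 (1.01 to 1.76). *Msh6*, *Exo1*, *Polh*, *Rev1* and *Trp53bp1* had intervals that hold 0 in that comparison in every library. Of all genes with at least 20 UMIs over both classes, 13.7%, 12.9% and 16.5% had intervals above equal levels there.

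*Trp53bp1*, the end protection factor, was nearly even. Its levels were 27.4, 24.5 and 22.9 CPM in dividing GC-like cells, 24.6, 28.3 and 15.6 in non-dividing ones and 22.5, 28.0 and 22.5 in resting-like cells. Every interval between these classes within a library held 0, with log2 ratios from -0.53 to 0.56.

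The remaining classes outside the GC, transitional-like, marginal zone-like and interferon-activated-like cells, held few UMIs of most members. *Rev1* stood at 37.1, 33.2 and 48.9 CPM in transitional-like cells of 3′RR-*BCL2*, Igκ-*BCL2* and WT, and at 36.6, 31.7 and 36.9 in interferon-activated-like cells. In marginal zone-like cells, over 106 cells of 3′RR-*BCL2* and 229 of WT, it stood at 59.6 (44.7 to 78.0) and 50.6 (41.0 to 61.8), below both GC classes of the same library. The Igκ-*BCL2* marginal zone-like class held 28 cells only. *Apex1* was higher in transitional-like cells than in resting-like ones, with 61.9 (40.0 to 91.3), 36.2 (23.2 to 53.8) and 48.9 (37.2 to 63.0) CPM. *Msh6* stood at 39.6 (22.6 to 64.3), 22.6 and 23.2 CPM there, the first of them above the 3′RR-*BCL2* resting level. In interferon-activated-like cells it stood at 16.2, 34.1 (22.8 to 48.9) and 12.3 CPM, and the Igκ-*BCL2* value was the highest of *Msh6* in that library. *Polh* was between 2.25 and 9.90 in these classes, apart from 27.5 in the 28 Igκ-*BCL2* cells, from 6 UMIs. *Ung* was between 4.59 and 15.8, *Trp53bp1* between 15.8 and 28.2, and *Exo1* had 0 to 6 UMIs per class. In the order of the classes most neighbors did not differ beyond their counting intervals. For *Rev1* the step between the GC classes and the next class was larger than its interval in all 3 libraries. Myeloid genes summed to 233.5, 0 and 584.5 CPM in interferon-activated-like cells, and their part in these levels was not tested.

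As counts, 1 of 7 members in 3′RR-*BCL2* (*Polh*), 0 of 6 in the Igκ-*BCL2* library and 2 of 6 in WT (*Msh6* and *Polh*) were at least 2-fold higher in dividing than in non-dividing GC cells, among members with at least 20 UMIs over both classes. Of all genes with as many UMIs, 4.59%, 2.79% and 6.67% were. Intervals lay above equal levels for 3 of 7 members in 3′RR-*BCL2* (*Msh6*, *Polh* and, by a margin of 0.002, *Rev1*), 0 in the Igκ-*BCL2* library and 2 in WT, against 15%, 8.04% and 10.5% of all genes. In non-dividing GC over resting cells, 3 of 7 (*Exo1*, *Polh* and *Rev1*), 2 of 7 (*Polh* and *Rev1*) and 4 of 7 (*Ung*, *Apex1*, *Exo1* and *Rev1*) were at least 2-fold higher, against 6.99%, 7.06% and 10.5% of all genes. Intervals lay above equal levels for 5, 4 and 3 of 7, against 25.1%, 19.5% and 12.7%. For dividing cells outside the GC over resting cells they did so for 2, 1 and 2 of 7, against 11%, 8.16% and 10.4%. There 1 member lay below in Igκ-*BCL2* (*Msh6*), against 6.32% of all genes. For dividing GC cells over dividing cells outside the GC the counts were 4, 3 and 6 of 7, against 19.2%, 16.4% and 19.3%.

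The dividing GC class depends on the upper limits of the cell filter (4500 genes and 20000 UMIs), which left out barcodes with many genes or UMIs. Above these limits but inside the others lay 69, 18 and 41 dividing GC-like barcodes of 3′RR-*BCL2*, Igκ-*BCL2* and WT, with median UMIs of 24737.5 to 31663. With the upper limits lifted, chosen after the data were seen, 13 of 21 pairs of member and library had intervals above equal levels in dividing over non-dividing GC cells, in place of 5. These were *Apex1*, *Exo1* and *Polh* in every library and *Ung* and *Msh6* in 3′RR-*BCL2* and WT. Among all genes, those at least 2-fold higher in that comparison also rose, from 1127 to 2013 over 3 libraries. The share of all genes with intervals above equal levels was not taken for this setting. The log2 ratio of *Exo1* was then 2.05 (1.25 to 2.93) in the 3′RR-*BCL2* library, 2.72 (0.94 to 5.13) in the Igκ-*BCL2* library and 2.02 (0.37 to 4.35) in WT. That of *Polh* was 1.30 (0.96 to 1.66), 0.71 (0.24 to 1.18) and 2.19 (1.01 to 3.67), and that of *Apex1* was 0.66 (0.36 to 0.97), 0.85 (0.43 to 1.28) and 0.82 (0.30 to 1.38). The intervals of *Rev1* and *Trp53bp1* held 0 in every library, with ratios from -0.18 to 0.18. Doublets were not removed, and their part among the barcodes above the limits was not tested.

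**Figure D2:**
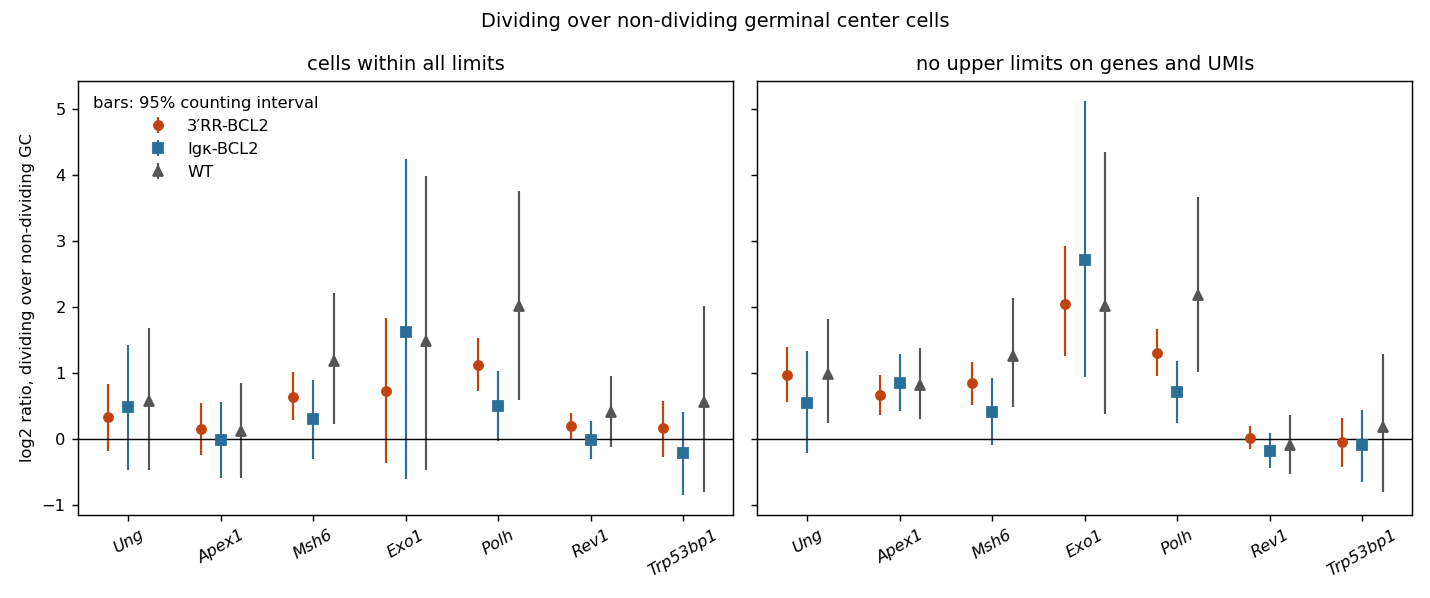
Log2 ratio of dividing over non-dividing GC cells (y axis) for the 7 genes (x axis) in 3 libraries, with 95% counting intervals, among cells within all limits (left) and with no upper limits on genes and UMIs (right). Exo1, Polh, Msh6, Apex1 and Ung are higher on the right in each library, whereas Rev1 and Trp53bp1 lie between -0.18 and 0.18 there, with intervals that hold 0.

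Within dividing GC cells, the members were split by the cell cycle. Each cell was placed by the share of S phase list UMIs in the sum of S phase and G2/M list UMIs (27 genes each, no member among them), above the median of its library (S-rich) or not (G2/M-rich). *Ung* stood at 32.5, 18.4 and 58.4 CPM in S-rich cells of 3′RR-*BCL2*, Igκ-*BCL2* and WT, against 6.28, 9.72 and 11.2 in G2/M-rich cells. The log2 ratios were 2.37 (1.34 to 3.58), 0.92 (-0.51 to 2.48) and 2.39 (0.63 to 4.78), so *Ung* was on the S phase side in each library. *Apex1* was on the same side, by 0.64 (0.02 to 1.28), 1.44 (0.44 to 2.53) and 1.65 (0.50 to 2.98), but its Igκ-*BCL2* ratio was -0.27 (-0.81 to 0.26) without the upper limits and -0.29 with a looser filter. Its WT ratio was 0.23 (-0.18 to 0.64) without the upper limits and -0.30 with classes from thinned cells. *Polh* was on the other. It stood at 26.5, 38.1 and 26.3 CPM in S-rich cells against 60.0, 45.8 and 55.8 in G2/M-rich cells, with log2 ratios of -1.18 (-1.74 to -0.64), -0.27 (-1.06 to 0.51) and -1.09 (-2.46 to 0.20). *Msh6* differed among libraries, with 1.17 (0.60 to 1.77), -0.56 (-1.51 to 0.35) and 0.78 (-0.31 to 1.95), and that difference was not tested. *Exo1*, *Rev1* and *Trp53bp1* had intervals that hold 0 in every library. Without the upper limits *Exo1* was above 0 in 3′RR-*BCL2*, with 0.98 (0.22 to 1.78), and in WT, with 1.02 (0.04 to 2.05), and *Rev1* in Igκ-*BCL2*, with 0.41 (0.02 to 0.81), and in WT, with 0.51 (0.07 to 0.96), whereas *Msh6* in 3′RR-*BCL2* had 0.68 (0.30 to 1.08). S-rich cells were somewhat deeper, with median UMIs of 10274.5, 9395 and 11080.5 against 8409.5, 8636 and 8741.5.

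**Figure D3:**
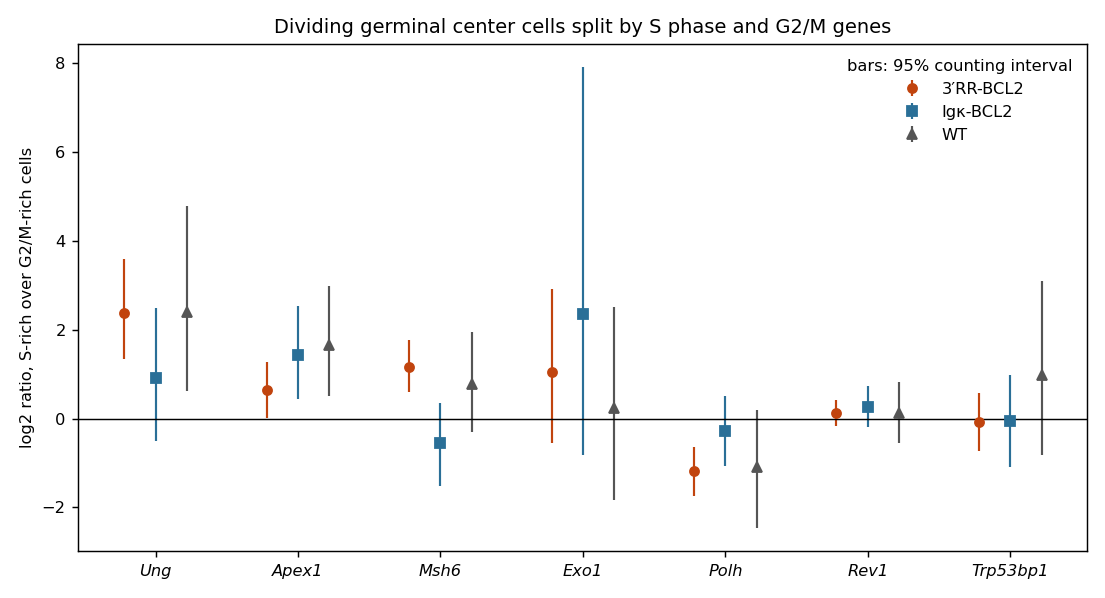
Log2 ratio of S-rich over G2/M-rich dividing GC cells (y axis) for the 7 genes (x axis) in 3 libraries, with 95% counting intervals. Ung and Apex1 lie above 0 and Polh lies below 0 in all 3 libraries among cells within all limits, and without the upper limits Apex1 is at -0.27 in Igκ-BCL2 and 0.23 in WT, both with intervals that hold 0.

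Between genotypes, *Apex1* was lower in both GC classes of both *BCL2* libraries, which are set against the same WT cells, and *Ung* was lower in the same classes apart from non-dividing 3′RR-*BCL2* cells, where its interval held 0. In dividing GC cells *Apex1* had log2 ratios over WT of -1.03 (-1.58 to -0.47) in the 3′RR-*BCL2* library and -1.09 (-1.74 to -0.43) in the Igκ-*BCL2* library, and in non-dividing ones -1.07 (-1.64 to -0.45) and -0.96 (-1.59 to -0.29). Those of *Ung* were -0.89 (-1.60 to -0.13) and -1.43 (-2.37 to -0.50) in dividing cells and -0.64 (-1.51 to 0.33) and -1.33 (-2.38 to -0.22) in non-dividing ones. *Exo1* was also lower in dividing GC cells, by ratios of -1.58 (-2.79 to -0.29) and -1.96 (-3.70 to -0.36), from 17 and 6 UMIs against 10 in WT, and *Msh6* by -0.45 (-1.0 to 0.13) and -0.86 (-1.53 to -0.18). *Rev1*, *Polh* and *Trp53bp1* lay within 0.26 of WT in dividing GC cells, with every interval holding 0. In non-dividing GC cells *Polh* was above WT by 0.99 (-0.29 to 2.65) and 1.61 (0.31 to 3.28), both set against 5 WT UMIs. The other genes of base excision repair had median log2 ratios over WT of -0.20 and -0.46 in dividing GC cells and 0.11 and 0.09 in non-dividing ones, beside -0.006, 0.006, 0.04 and 0.08 over all genes.

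**Figure D4:**
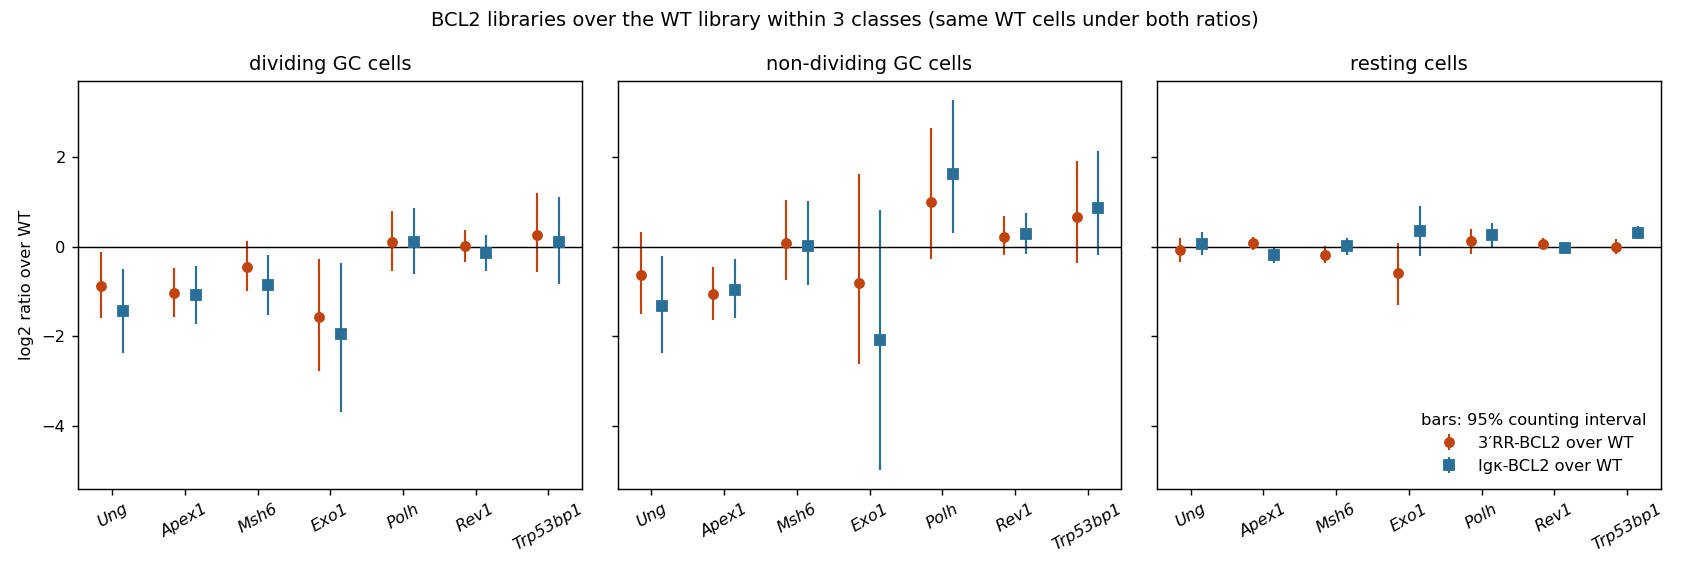
Log2 ratio over WT (y axis) of the 7 genes (x axis) in 3′RR-BCL2 and Igκ-BCL2, with 95% counting intervals, in dividing GC, non-dividing GC and resting-like cells. Apex1 and Ung lie below 0 in both GC classes, with the interval of Ung in non-dividing 3′RR-BCL2 cells holding 0, and all members lie within 0.59 of WT in resting-like cells.

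Other values differed with the same libraries. In dividing GC cells the S phase list summed to 2023, 1197 and 2964 CPM and the 8 MYC-high markers to 381, 310 and 656 in the 3′RR-*BCL2* library, Igκ-*BCL2* and WT. In non-dividing GC cells these markers summed to 383, 311 and 644. The S phase list summed to 666, 621 and 1113 CPM there and the G2/M list to 1210, 1200 and 1745, so WT was the highest in both. The part of these differences in the member results was not tested. Within steps of equal *Mki67* and *Top2a* UMIs, *Apex1* was below WT in 5 of 5 steps in 3′RR-*BCL2*, by log2 ratios from -1.47 to -0.71 of which 2 had intervals off 0, and in 4 of 5 in the Igκ-*BCL2* library, where the 15 cells with 10 or more UMIs gave 0.67 (-0.60 to 1.92). In the same steps, from the lowest up, *Ung* had -1.20, 0.0004, -0.93, 0.04 and -0.72 in 3′RR-*BCL2*, with every interval holding 0. In Igκ-*BCL2* it had -1.89 (-3.29 to -0.34), -0.66, -0.68, -1.32 and -0.90, and only the first interval was off 0. The WT steps hold 16 to 32 cells. The Igκ-*BCL2* ratio of *Apex1* in dividing GC cells was 0.12 (-0.77 to 1.05) when dividing cells had to hold at least 4 UMIs and 0.03 when classes were made from thinned cells. Without the upper limits the *Apex1* ratios were -1.07 (-1.34 to -0.80) and -0.72 (-1.05 to -0.39), those of *Ung* -0.86 (-1.22 to -0.50) and -1.67 (-2.25 to -1.11), and that of *Exo1* in 3′RR-*BCL2* -0.53 (-1.11 to 0.07). *Rev1* was then above WT in 3′RR-*BCL2*, by 0.38 (0.13 to 0.63). With classes from thinned cells, the Igκ-*BCL2* ratio of *Ung* in non-dividing GC cells was 0.83.

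At least 2-fold lower than WT in dividing GC cells were 2 of 7 members in 3′RR-*BCL2* (*Apex1* and *Exo1*), against 3.14% of all genes, and 2 of 6 in Igκ-*BCL2* (*Ung* and *Apex1*), against 5.85%. None was at least 2-fold higher, against 5.99% and 6.46%. In non-dividing GC cells 1 of 6 was lower in 3′RR-*BCL2* (*Apex1*) and 1 of 6 in Igκ-*BCL2* (*Ung*), against 3.82% and 3.63%, and 0 and 1 (*Polh*) were higher, against 8.13% and 8.24%. In resting-like cells no member passed 2-fold in either direction, against 1.2% and 3.72% of all genes higher and 1.9% and 2.13% lower. There the largest shift with an interval off 0 was that of *Trp53bp1* in Igκ-*BCL2*, 0.31 (0.16 to 0.46), followed by *Apex1* in Igκ-*BCL2*, -0.20 (-0.36 to -0.03). Of all genes in resting-like cells of Igκ-*BCL2*, 22.3% had intervals above WT and 19.1% below.

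The *BCL2* libraries were also set against each other. Igκ-*BCL2* over 3′RR-*BCL2*, every interval of the dividing GC class held 0, with log2 ratios from -0.54 (*Ung*) to 0.003 (*Polh*). In non-dividing GC cells *Polh* was higher in Igκ-*BCL2* by 0.62 (0.14 to 1.10), and the other intervals held 0. In resting-like cells *Exo1* was higher by 0.94 (0.22 to 1.68), from 49 against 26 UMIs, and *Trp53bp1* by 0.32 (0.14 to 0.49), whereas *Apex1* had -0.26 (-0.45 to -0.08). Of all genes, 26.9% had intervals above equal levels and 12.3% below in resting-like cells. In non-dividing GC cells 9.36% lay above and 6.62% below, and in dividing GC cells 8.45% above and 9.89% below. Plasma cell genes summed to 3708, 1694 and 2618 CPM in dividing GC cells of Igκ-*BCL2*, 3′RR-*BCL2* and WT, and their part in the member ratios was not tested.

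Per cell, these transcripts were sparse. After thinning each cell to 2000 UMIs, 38.6%, 37.2% and 51.7% of dividing GC cells of 3′RR-*BCL2*, Igκ-*BCL2* and WT held a UMI of any member, against 34.4%, 40.3% and 41.8% of non-dividing GC cells and 19.6%, 20.6% and 20.3% of resting-like cells. The GC intervals lay above the resting ones in every library. *Rev1* was found in 18.4%, 18.9% and 29.3% of dividing GC cells, against 7.06%, 6.69% and 6.91% of resting-like cells. *Polh* was found in 8.23%, 8.11% and 13.8% (exact intervals start at 5.45%, 4.26% and 6.15%), against 1.53%, 1.45% and 1.15%. As a gauge of free RNA, *Hba-a1*, a red cell gene used for no class, was found in 0.201%, 0.214% and 0.111% of resting-like cells at the same 2000 UMIs. With shares this low, cells that lacked a UMI cannot be told from cells that lacked the transcript.

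The other genes of these pathways were taken from 5 lists, in dividing over non-dividing GC cells and among genes with at least 20 UMIs. Homologous recombination had the highest medians but few genes with enough UMIs, with 7 of 10, 2 of 5 and 2 of 4 genes at least 2-fold higher in 3′RR-*BCL2*, Igκ-*BCL2* and WT and median log2 ratios of 1.91, 0.57 and 1.63, beside medians of 0.01, 0.0002 and 0.06 over all genes. Mismatch repair and resynthesis had 4 of 16, 3 of 16 and 5 of 14 (medians 0.53, 0.25 and 0.79), and base excision repair 3 of 16, 1 of 13 and 3 of 12 (0.33, 0.08 and 0.55). Translesion synthesis had 1 of 14, 0 of 13 and 2 of 11 (0.24, 0.09 and 0.39), and the 53BP1 and end joining list 1 of 22, 1 of 21 and 3 of 17 (0.17, 0.18 and 0.11). Over all genes 4.59%, 2.79% and 6.67% were at least 2-fold higher, so that the counts of both these lists in the *BCL2* libraries amount to 1 gene or none. At least 2-fold lower were 2 genes of the 53BP1 list in WT, 0 in all other cases, against 1.38%, 1.86% and 3.12% of all genes.

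Summed over the 3 libraries, to which 3′RR-*BCL2* contributes most cells, genes at the ends of each list had the values that follow. *Neil3*, a glycosylase of base excision repair, led with 130 UMIs in dividing against 4 in non-dividing GC cells, a log2 ratio of 5.51 (4.12 to 7.41), and the ligase gene *Lig1* followed with 2.31 (2.06 to 2.57), whereas *Smug1*, which also removes uracil, was at -0.24 (-1.0 to 0.50). The clamp loader genes *Rfc4* and *Rfc5* had 1.95 (1.58 to 2.33) and 1.49 (1.14 to 1.84), and *Msh3*, the partner of another mismatch complex, and the polymerase subunit *Pold4* 0.09 (-0.10 to 0.29) and -0.02 (-0.09 to 0.05). In translesion synthesis the polymerase theta gene *Polq* had 1.45 (0.59 to 2.36) and the deubiquitinase gene *Usp1* 0.57 (0.38 to 0.76), but in Igκ-*BCL2* alone they were at -1.97 (-7.49 to 1.07) and -0.12 (-0.50 to 0.25), whereas the polymerase gene *Polk* was at -0.12 (-0.66 to 0.40) and *Wdr48*, whose product binds USP1, at -0.14 (-0.50 to 0.21). *H2afx*, which encodes the histone H2AX, had 1.64 (1.48 to 1.80) and *Paxip1*, whose product binds 53BP1, 0.92 (0.58 to 1.26), whereas the ligation factor gene *Xrcc4* was at -0.18 (-0.57 to 0.22), from -0.61 (-1.17 to -0.07) in the 3′RR-*BCL2* library, 0.10 (-0.63 to 0.80) in the Igκ-*BCL2* library and 1.51 (0.02 to 3.31) in WT, and *Nudt16l1*, which encodes a regulator of 53BP1, at -0.43 (-0.86 to -0.01). *Eme1* and *Rad54l* led homologous recombination with 4.4 (2.42 to 7.51), from 30 against 2 UMIs, and 3.68 (2.62 to 4.94), and *Rbbp8* and *Mus81* were last with 0.45 (0.22 to 0.68) and 0.13 (-0.33 to 0.58). On the same sum, *Polh* had 0.94 (0.63 to 1.24), *Exo1* 1.14 (0.31 to 2.0), *Msh6* 0.63 (0.34 to 0.92), *Ung* 0.46 (0.06 to 0.86), *Apex1* 0.17 (-0.12 to 0.45), *Rev1* 0.15 (-0.003 to 0.30) and *Trp53bp1* 0.06 (-0.28 to 0.38). The libraries enter both classes in unequal shares, with totals of 611574 dividing and 513953 non-dividing UMIs in WT against 3101054 and 4510539 in 3′RR-*BCL2*. A summed ratio can therefore differ from those within libraries. Taken alone, 3′RR-*BCL2*, Igκ-*BCL2* and WT gave *Apex1* 0.15, -0.01 and 0.12, all below its summed ratio. The intervals of *Ung* and *Exo1* held 0 in each library.

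Likeness over the 23 classes of at least 30 cells in the 3 libraries was described by Pearson's r of log2 levels with 5 CPM added, among 10170 genes. The points share libraries and depth, and small classes are noisy. *Rev1* was most like *Helq*, *Lipc* and *Rassf6* (r = 0.96 each), of which *Rassf6* is on the GC list that made the classes. *Polh* was most like *Ddhd2* and *Slbp* (0.93) and *Atad2* (0.92), and *Apex1* like *Eif5a* (0.93), *Mif* and *Phb2* (0.92). *Ung* was most like *Acot7* (0.87), *Psmb2* and *Rrp7a* (0.85), *Msh6* like *Gh* (0.90), *Slx4* and *Csnk2b* (0.89), and *Trp53bp1* like *Eapp* (0.76), *Ppwd1* and *Nfyb* (0.75). Among members other than *Exo1*, the highest r was that of *Polh* with *Rev1* (0.84), followed by *Polh* with *Msh6* (0.72) and *Ung* with *Apex1* (0.56), and the lowest that of *Apex1* with *Trp53bp1* (-0.32). *Exo1*, with 255 UMIs in all kept cells, was under the minimum of 300 UMIs and was not run.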

How the data were processed

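Splenic B cells of 3 mouse lines, 1 library each, were measured by 10x 3′ RNA sequencing. The authors deposited raw UMI counts per gene and barcode, which the submitters' processing notes tie to Cell Ranger 6.1.1 and mm10. Depth per library is given above. From these counts, cells passed the study's filter when they had 800 to 4500 genes, no more than 20000 UMIs, a mitochondrial share of up to 8% and a ribosomal protein share from 10% up. Those with 2 or more *Cd3* UMIs or *C1q* UMIs were left out. Doublets were not called. Groups come from the deposited genotype labels. Scripts used Python 3.11.15, numpy 2.4.6, scipy 1.17.1 and pandas 2.3.3, and interval code was tested on simulated counts. The members and lists were chosen with earlier results of these data known. Limits for classes other than the GC ones were set after marker distributions were seen. Comparisons with dividing cells outside the GC and with MYC-high cells, those between *BCL2* libraries, and steps of division UMIs were added after seeing the data. Named pathway genes are the 2 highest and 2 lowest pooled ratios of each of 5 lists. UMIs of 1 cell are not independent of each other, so intervals may be too narrow. Alternatives covered the filter, class limits, thinning, totals and UMI minimum. No columns were left unmapped, and some repair genes, also some that the naming rule picks, are not reported here.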

Additional observations from a re-analysis of the deposited data

Results flagged for a closer look

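Dividing GC-like barcodes above the upper limits on genes and UMIs, which the comparisons above leave out, held more of several members than the kept dividing GC-like cells. Named are the members whose 95% interval of the ratio lay above equal levels. In 3′RR-*BCL2* the levels above the limits were 42.9 CPM for *Ung* (20.3 in kept cells), 68.9 for *Apex1* (31.9), 25.0 for *Exo1* (5.48) and 57.1 for *Polh* (41.9). In Igκ-*BCL2* they were 119 for *Apex1* (30.8) and 17.1 for *Exo1* (4.20). In WT they were 60.3 for *Ung* (37.6) and 112 for *Apex1* (65.4). Whatever their intervals, 15 of 21 pairs of member and library had a higher level above the limits. *Rev1* was lower there in every library. It stood at 83.0, 72.5 and 66.5 CPM in 3′RR-*BCL2*, Igκ-*BCL2* and WT, against 129.6, 116.2 and 129.2 in kept cells. The share of all genes that pass this rule was not taken. These levels rest on 69, 18 and 41 barcodes of 3′RR-*BCL2*, Igκ-*BCL2* and WT. Doublets were not called, and their part in these levels was not tested.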

How the results depend on the processing

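No paired analysis was possible because each genotype has 1 library, and leaving out replicates was not possible for the same reason. Of 148 alternative values of 15 counts, 118 stayed within 1.5 times and 30 did not. Of 1197 alternative values of members and lists, 1078 stayed, 112 moved more and 7 turned round. Member values stayed when inside the counting interval of the reported value, and list counts when within 1.5 times. Lifting the upper limits was chosen after the data were seen. The looser filter took cells from 500 genes up with up to 15% mitochondrial UMIs, kept the limits on *Cd3* and *C1q* UMIs and set no other. Members with an interval above equal levels in dividing over non-dividing GC cells, 5 of 21 as reported, were 10 at 2 GC genes, 3 at 4 GC genes, 10 at 4 division UMIs, 14 with the looser filter and 13 without upper limits. Those at least 2-fold higher, 3 as reported, were 1 at a minimum of 50 UMIs, 7 with the looser filter and 6 without upper limits. All genes at least 2-fold higher there, 1127 over 3 libraries, were 1819 at 10 UMIs, 507 at 50 UMIs, 2004 with the looser filter and 2013 without upper limits. Members at least 2-fold below WT in dividing GC cells, 4 of 14, were 2 at 50 UMIs, 1 with classes from thinned cells and 2 at 4 division UMIs. In non-dividing GC cells, 2 below WT became 0 at 2 GC genes, 0 with thinned classes, and 1 each at 50 UMIs, with the looser filter, with the mean over cells and without upper limits. The 1 above WT became 2 at 2 GC genes, 4 at 4 GC genes, 3 with thinned classes, 2 at 1 division UMI, 0 with the looser filter, and 2 each with the mean over cells and without upper limits. Shares of positive dividing GC cells above resting ones, 8 of 21, were 13 without upper limits, and the S-rich against G2/M-rich calls, 7, were 4 with thinned classes. The share of all genes called was not taken for either count, so neither can be read as particular to the members. The 7 that turned round were the *Apex1* S-rich ratio of Igκ-*BCL2*, -0.29 with the looser filter and -0.27 without upper limits, and that of WT, -0.30 with thinned classes. The *Apex1* ratio of Igκ-*BCL2* over WT in dividing GC cells was 0.12 at 4 division UMIs and 0.034 with thinned classes. The *Ung* ratio of non-dividing GC over resting cells in WT was -0.044, and of Igκ-*BCL2* over WT in non-dividing GC cells 0.83, with thinned classes. Apart from fewer cells in thinned classes and a changed set of cells, the cause was not tested. WT had the fewest GC-like cells, which limits every ratio over it.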
